A study of Oryctolagus cuniculus with 10 samples.

Results

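In the lung of rabbit fetuses with a surgical diaphragmatic hernia, 185 genes stood apart from both the control lungs and the lungs that had a hernia and then a tracheal occlusion. They are 185 of the 13429 genes in the deposited table and of the 11478 that passed a level filter. The members were chosen by their measured values. Each value was a CPM, the gene's count scaled to a common library total, plus 0.5. A gene entered if this value was at least 5.5 in 2 or more libraries and if both hernia libraries lay above, or both lay below, all 3 control and all 3 hernia with occlusion libraries, with the higher side at least 25% above the lower. The level condition counted all 10 libraries, with the 2 occlusion libraries among them. Of the members, 90 were higher and 95 were lower in the hernia libraries. Before 6 genes were left out by name, of which 5 met these conditions, 190 genes passed, or 1.66% of those past the level filter (0.819% higher and 0.836% lower).

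Messenger RNA was sequenced from the lateral side of the left upper lobe of New Zealand rabbit fetuses collected at E30.5 (embryonic day). Control lungs (n = 3) are labelled as such, and no sham operation is described in the labels. Hernia lungs (n = 2) came from fetuses in which a left diaphragmatic hernia was made at E25, occlusion lungs (n = 2) from fetuses whose trachea was closed at E27, and hernia with occlusion lungs (n = 3) from fetuses that had both operations. The tissue is a piece of whole lobe, so fewer cells of a type and less RNA per cell cannot be told apart. The labels do not say how the fetuses were spread over litters, and p-values measure only the spread between these samples.

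In congenital diaphragmatic hernia, abdominal organs enter the chest through a gap in the diaphragm and the lung stays small, with fewer airway branches and thickened vessels. The fetal lung secretes fluid that normally leaves through the trachea. Closing the trachea holds that fluid back, so that the lung is distended and grows, and the operation is used before birth in severe cases. The set brings together genes whose hernia values lay apart from those of controls and from those of lungs with both operations; it sets no limit on how the latter 2 groups differ from each other. Each library is a different fetus, so no gene was followed over time in one lung.

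The libraries held between 16383835 and 22239034 counts over the table. No member was at 0 in any library, and the smallest count of a member was 3, in hernia replicate 1. The titles of control replicate 2 and hernia with occlusion replicate 1 share the stem M83, and those of occlusion replicate 2 and hernia with occlusion replicate 3 the stem M88. The titles of both hernia libraries carry the stems M38 and M39, while those of the other 8 run from M83 to M98. Whatever that stem stands for and the hernia itself cannot be told apart, and every contrast with the hernia libraries carries this limit. The identifiers could not be paired with gene symbols here, so the members are given by Ensembl identifier, without function, position or sequence, and the identity of the tissue was not checked against marker genes.

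The gap between the hernia libraries and the other 6 was narrow for most members. Among the 90 genes higher with a hernia, the lowest hernia value was a median of 1.32 times the highest of the 6, and 66 genes had a gap under 1.4. A gap of at least 1.5 was found in 12 of them and of at least 2 in 3. The 95 genes lower with a hernia had a median gap of 1.33, with 62 under 1.4, 16 at 1.5 or more and 3 at 2 or more. These values chose the members and are given as a description, without a test.

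Group means differed by more than the gap. Hernia exceeded control by a median of 0.69 on the log2(CPM + 0.5) scale in the higher set, or 1.61-fold, with a range from 0.37 to 4.14, and 13 of the 90 genes differed at least 2-fold. In the lower set the median was -0.72, or 1.65-fold, with sizes from 0.36 to 3.12, and 20 of the 95 genes differed at least 2-fold. The pair of hernia libraries lay close together for these genes, at a median distance of 0.09 in the higher set and 0.11 in the lower set, beside 0.17 over all genes past the level filter. A choice that asks both hernia libraries to lie on one side favours such genes.

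**Figure D1:**
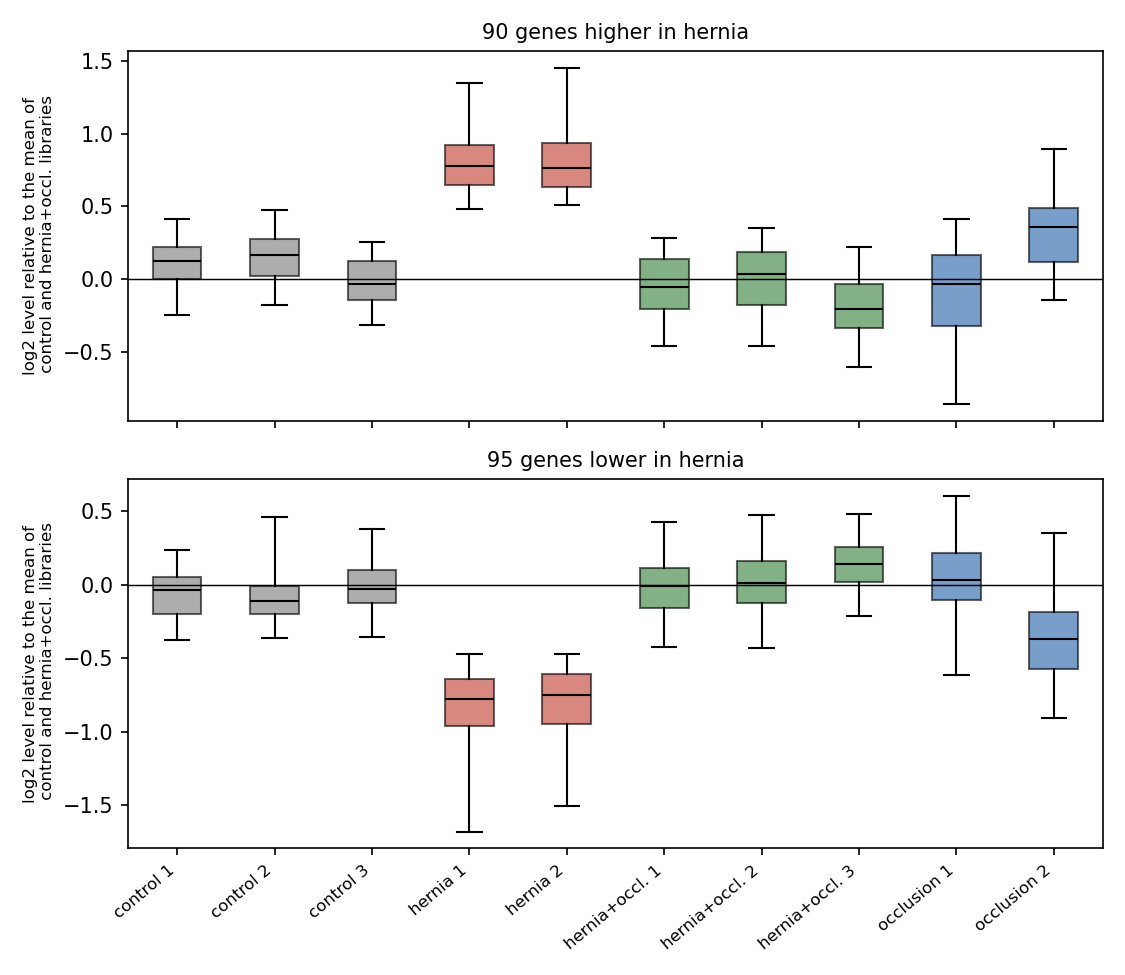
Level of the 90 members higher and the 95 members lower with a hernia in each of the 10 libraries, as log2(CPM + 0.5) minus the mean of the control and hernia with occlusion libraries. Boxes span the quartiles, the line is the median and whiskers run from the 5th to the 95th percentile. Medians in the hernia libraries were 0.77 and 0.77 in the higher set and -0.77 and -0.75 in the lower set. The median of occlusion replicate 2 leaned to the hernia side, at 0.36 and -0.37, while occlusion replicate 1 was at -0.03 and 0.03.

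The members covered a wide range of levels. Mean levels in the higher set ran from 3.05 to 3664.6 CPM with a median of 17.3, and 29 of the 90 genes lay under 10 CPM. The lower set ran from 3.49 to 1061.9 CPM with a median of 34.7, near the 33.5 of all genes past the filter, and 16 of its 95 genes lay under 10 CPM. The members with the highest mean in each direction were chosen for naming after their values were seen. ENSOCUG00000029108 stood at 3094.0, 3778.2 and 3556.1 CPM in controls and at 4841.8 and 4904.7 CPM with a hernia. It was at 3132.1 and 3160.9 CPM with occlusion and at 3595.7, 3822.2 and 2760.8 CPM with both operations. Both hernia libraries were thus above all 8 others, while the remaining groups overlapped.

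ENSOCUG00000013954 was the most abundant gene of the lower set. It stood at 1009.1, 1243.4 and 1182.9 CPM in controls, at 638.4 and 595.8 CPM with a hernia, at 999.1 and 1019.8 CPM with occlusion, and at 1039.5, 1398.6 and 1492.1 CPM with both. The hernia libraries were below all 8 others here. The controls overlapped the hernia with occlusion libraries.

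The 2 widest gaps belonged to genes that were low in controls and after both operations. ENSOCUG00000011869 had the widest, 3.68. Its level was 1.93, 1.66 and 1.71 CPM in controls and 25.9 and 8.45 CPM with a hernia. With both operations its 3 values lay between 1.24 and 1.38 CPM, while occlusion replicate 1 reached 14.3 CPM and replicate 2 was at 0.851 CPM. The hernia libraries were themselves far apart, and one lung with occlusion and no hernia lay between their values.

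ENSOCUG00000006106 came next, with a gap of 3.38. It stood at 0.331, 0.753 and 0.627 CPM in controls and at 35.7 and 9.08 CPM with a hernia. In this gene both occlusion libraries were low too, at 1.06 and 0.738 CPM, as were the lungs with both operations, at 0.779, 1.14 and 2.33 CPM. Every hernia library was above every other library, and the mean with a hernia was 22.4 ± 18.8 CPM (SD, n = 2) against 0.57 ± 0.22 CPM (SD, n = 3) in controls.

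ENSOCUG00000023599 was the third gene of the higher set with a gap of at least 2, at 2.39. Controls stood at 179.3, 235.0 and 178.0 CPM and hernia lungs at 561.2 and 596.2 CPM. The lungs with both operations were lower than all controls, at 28.9, 123.1 and 64.1 CPM. The occlusion lungs stood far apart from each other, at 28.7 and 278.2 CPM, 1 below and 1 above the controls.

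In the lower set the widest gap, 2.3, was that of ENSOCUG00000014800. Its level was 49.3, 28.4 and 89.0 CPM in controls and 10.1 and 12.1 CPM with a hernia. Occlusion lungs had 62.0 and 26.0 CPM and lungs with both operations 90.2, 46.5 and 105.2 CPM. The hernia libraries were the lowest, and the other 3 groups overlapped. The controls varied widely among themselves, at 55.6 ± 30.8 CPM (SD, n = 3).

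Both other genes with a gap of at least 2 in that direction had low levels. ENSOCUG00000011455, with a gap of 2.12, was at 1.93, 1.81 and 3.53 CPM in controls, 0.427 and 0.54 CPM with a hernia, 6.57 and 1.02 CPM with occlusion, and 5.24, 1.71 and 12.1 CPM with both. ENSOCUG00000026015, with a gap of 2.01, was at 8.17, 21.6 and 8.55 CPM in controls, 2.81 and 2.47 CPM with a hernia, 6.98 and 8.0 CPM with occlusion, and 8.51, 13.2 and 6.15 CPM with both. Hernia libraries were the lowest in both genes. The other groups overlapped, except that both occlusion lungs lay below all controls in ENSOCUG00000026015.

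**Figure D2:**
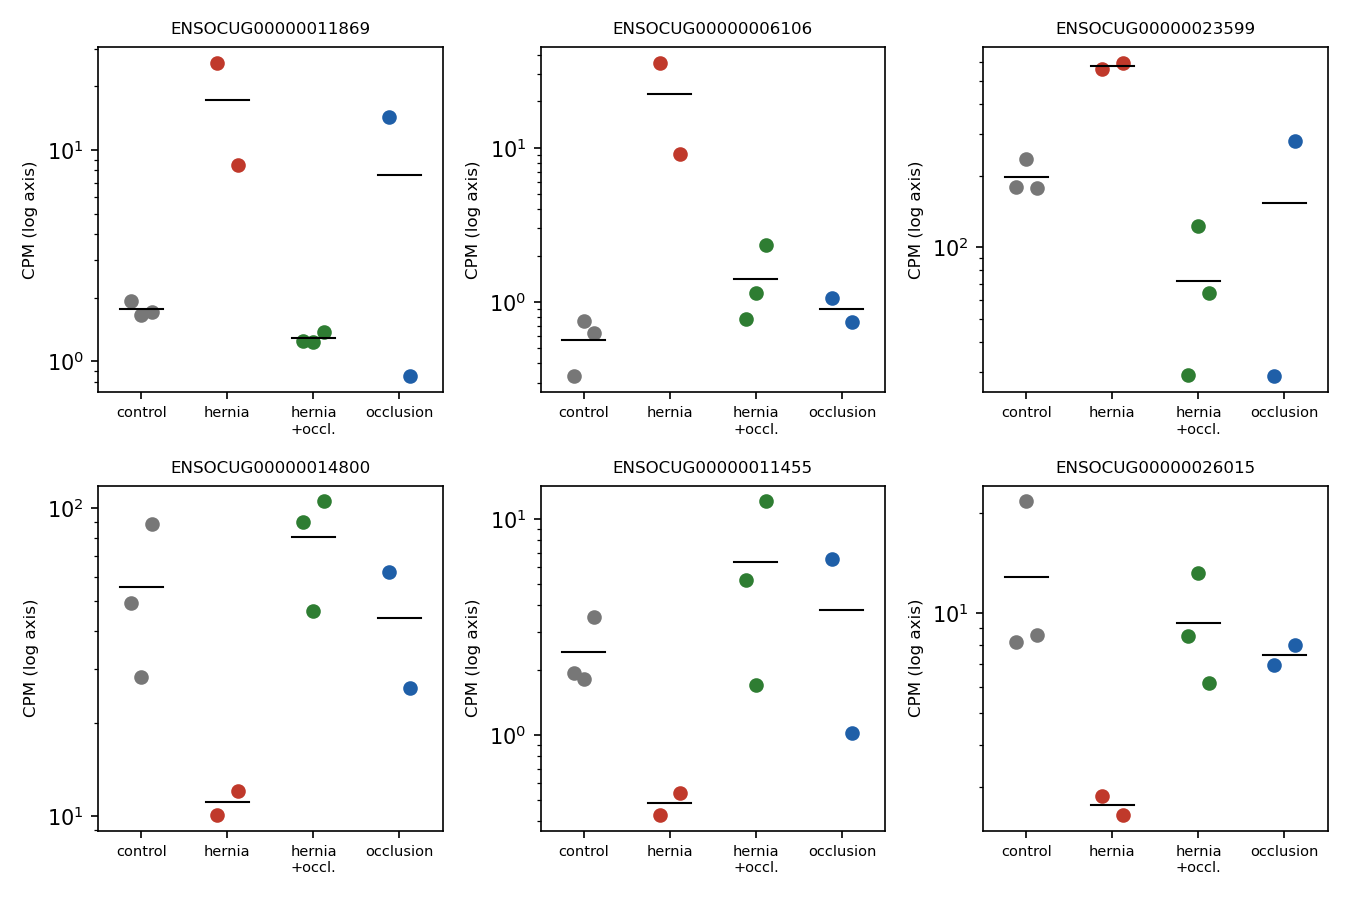
CPM on a log axis of the 6 members with a gap of at least 2, by group; points are libraries and bars are group means. The hernia points stand apart from the control and hernia with occlusion points because the genes were chosen for this. No side was set for the occlusion points, though they counted in the level filter. They are wide apart in ENSOCUG00000011869 (14.3 and 0.851 CPM) and ENSOCUG00000023599 (28.7 and 278.2 CPM).

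At the threshold, members and non-members hardly differed. In the higher set the member nearest the limit had hernia values of 51.8 and 55.1 CPM against 31.5 to 41.3 CPM in the 6 other libraries, and the nearest gene outside had 34.8 and 37.3 CPM against 17.9 to 27.8 CPM. The next member inside had 56.8 and 59.3 CPM against 25.4 to 45.3 CPM, and the next gene outside 202.7 and 211.4 CPM against 125.8 to 162.2 CPM. In the lower set the nearest member had 216.9 and 246.4 CPM against 308.2 to 395.7 CPM, while the nearest gene outside had 73.7 and 157.0 CPM against 196.4 to 507.3 CPM. The next inside had 14.4 and 14.5 CPM against 18.2 to 27.6 CPM, and the next outside 79 and 88 CPM against 110.1 to 136.2 CPM.

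Each hernia library was set aside in turn to see how far the choice rested on 1 of the pair. Without hernia replicate 1, 303 genes would have been chosen as higher, and in hernia replicate 1 itself 84 of these (27.7%) were past the highest of the 6 by at least 25%, beside 2.87% of all genes past the level filter. Of 260 genes chosen as lower, 95 (36.5%) were past the lowest of the 6 by the same margin, beside 2.8%. Without hernia replicate 2, 332 and 317 genes would have been chosen, and 84 (25.3%) and 95 (30.0%) of them were past the limit in hernia replicate 2, beside 2.6% and 2.29%. Most genes chosen on 1 hernia library were therefore not past the limit in the other. In hernia replicate 1, 41.6% of the higher and 24.2% of the lower genes did not lie beyond the 6 at all. In hernia replicate 2 it was 33.4% and 29.0%. The others lay beyond all 6 towards the hernia, by the margin of 25% or by less. The 6 libraries that set the limit served both for the choice and for the reading. Genes past the limit in both hernia libraries are members by the rule itself. The counts of 84 and 95 are therefore a description, and nothing is read from their excess over all genes.

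Leaving out a library of the other 6 added fewer genes. Without control replicate 2 the choice gave 159 higher and 161 lower genes, and in that control 21 and 10 of them lay at or beyond the nearer hernia value. For the other 5 libraries the sets held between 101 and 128 genes, of which at most 9 lay at or beyond the nearer hernia value in the library left out. Control replicate 2 was the library nearest to the hernia values in 31 of the 90 members of the higher set, where each of the other 5 was so in 6 to 17. In the lower set it was nearest in 20 of 95, much as controls 1 and 3 (19 and 18) and hernia with occlusion replicates 1 and 2 (19 and 16) were.

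**Figure D3:**
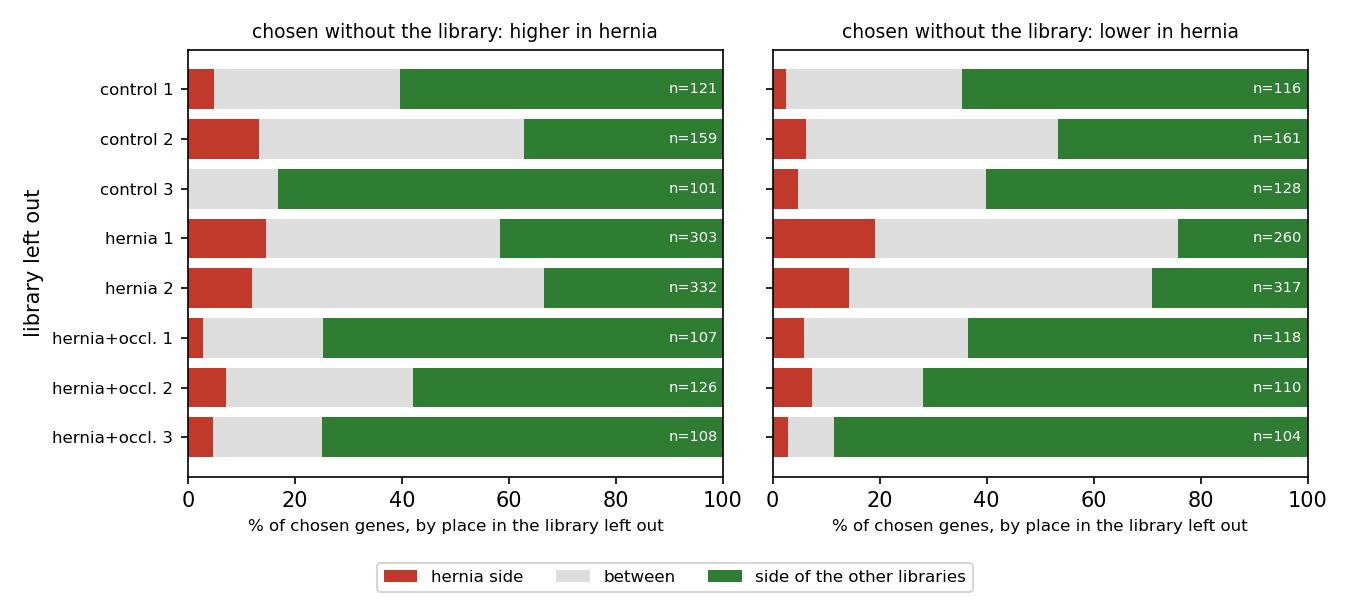
Place, in a library left out of the choice, of the genes chosen from the other 7 libraries that the rule uses, as a percentage of those genes: at or beyond the nearer hernia value, between, or on the side of the control and hernia with occlusion libraries. For a hernia library left out, the remaining hernia library stands for the hernia values. Without control replicate 2, 37.1% of the genes chosen as higher lay on the side of the 6 in that control; without control replicate 3 the share was 83.2%.

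Apart from the level filter, which counted them, the occlusion lungs took no part in the choice. They show where an occluded lung without a hernia stood for these genes. In occlusion replicate 1, 78 of the 90 genes of the higher set (86.7%) lay on the side of the control and hernia with occlusion libraries, which means no higher than the highest of those 6. Of the others, 11 lay between and 1, ENSOCUG00000011869, at hernia level. In occlusion replicate 2 only 40 (44.4%) were on the side of the 6, 43 were between and 7 were at hernia level. The lower set was placed in the same way, with 81 of 95 genes (85.3%) on the side of the 6 in replicate 1, and 26 (27.4%) in replicate 2, where 60 were between and 9 at hernia level.

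Towards the hernia, occlusion replicate 1 was near the share of all genes and replicate 2 was not. In replicate 1, 12 of the 90 genes of the higher set (13.3%) lay above all 6 libraries, beside 11.9% of all genes, and 14 of the 95 of the lower set (14.7%) lay below all 6, beside 12.6%. In replicate 2, 50 of 90 (55.6%) lay above all 6, beside 15.3%, and 69 of 95 (72.6%) lay below all 6, beside 20.6%. In the direction away from the hernia, replicate 1 lay below all 6 in 19 genes of the higher set (21.1%), beside 12.6% of all genes, and above all 6 in 15 of the lower set (15.8%), beside 11.9%. Replicate 2 did so in 1 gene of the higher set (1.11%, beside 20.6%) and in 2 of the lower set (2.11%, beside 15.3%). The 6 libraries were chosen to lie away from the hernia in the members, so the share of all genes is not an even baseline. Control replicate 2, left out, lay on the side of the rest in 37.1% of genes chosen as higher and 46.6% as lower. In the other control and hernia with occlusion libraries, left out in turn, these shares were 57.9% to 83.2% and 60.2% to 88.5%.

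Both occlusion lungs lay on the side of the 6 in 37 of the 90 genes of the higher set and in 17 of the 95 of the lower set. For 57 genes of the lower set replicate 1 was on that side while replicate 2 stood between. Only ENSOCUG00000001816 lay at hernia level in both. It stood at 69.5, 61.8 and 64.9 CPM in controls, 30.2 and 49.2 CPM with a hernia, 48.5 and 35.0 CPM with occlusion, and 73.0, 93.7 and 65.2 CPM with both operations. The occlusion lungs of this gene lay within the range of the hernia lungs, below all controls; it was named after its values were seen.

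A count of 4 genes of the lower set went the other way, with replicate 1 at hernia level and replicate 2 on the side of the 6, and they too were picked out after their values were seen. ENSOCUG00000003229 had 28.6 and 137.5 CPM in the occlusion lungs, 104.5, 79.1 and 144.4 CPM in controls, 29.5 and 31.0 CPM with a hernia, and 46.3, 156.9 and 56.4 CPM with both. ENSOCUG00000026988, ENSOCUG00000000401 and ENSOCUG00000016337 had the same order of the occlusion lungs, with 32.2 and 91.8 CPM, 3.29 and 9.19 CPM, and 8.7 and 17.5 CPM. In all 4, hernia with occlusion replicate 2 was the highest of its group.

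The occlusion lungs differed from each other in the direction of the hernia. Occlusion replicate 2 was above replicate 1 in 72 of the 90 genes of the higher set (80.0%), beside 47.1% of all genes, by a median of 1.29-fold. Replicate 1 was above replicate 2 in 78 of the 95 genes of the lower set (82.1%), beside 52.9% of all genes, by a median of 1.36-fold. On the log2(CPM + 0.5) scale replicate 1 minus replicate 2 had a median of -0.37 in the higher set, 0.45 in the lower set and 0.03 over all genes, with ranges from -3.26 to 3.45 and from -4.52 to 2.22 in the sets. A mean over the occlusion group therefore joins a lung near the controls to one that leans towards the hernia lungs. A lean also showed in control replicate 2 when it was left out of the choice. Of the genes then chosen, 37.1% (higher) and 46.6% (lower) lay on the side of the rest in that control. In occlusion replicate 2 the shares of members were 44.4% and 27.4%. The shares differ in their genes and limits: members were read against all 6 libraries, the other genes against those that remained. The other control and hernia with occlusion libraries, left out in turn, had larger shares than control replicate 2. Pairs within other groups leaned too, though their libraries, unlike the occlusion libraries, were compared with each other in the choice. Hernia with occlusion replicate 1 was above replicate 3 in 66.7% of the higher set and 23.2% of the lower set, with median log2 differences of 0.17 and -0.17. Control replicate 2 was above replicate 3 in 68.9% and 37.9%, with medians of 0.15 and -0.09, while hernia replicate 1 was above replicate 2 in 52.2% and 47.4%. The difference between the occlusion lungs was not tested.

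**Figure D4:**
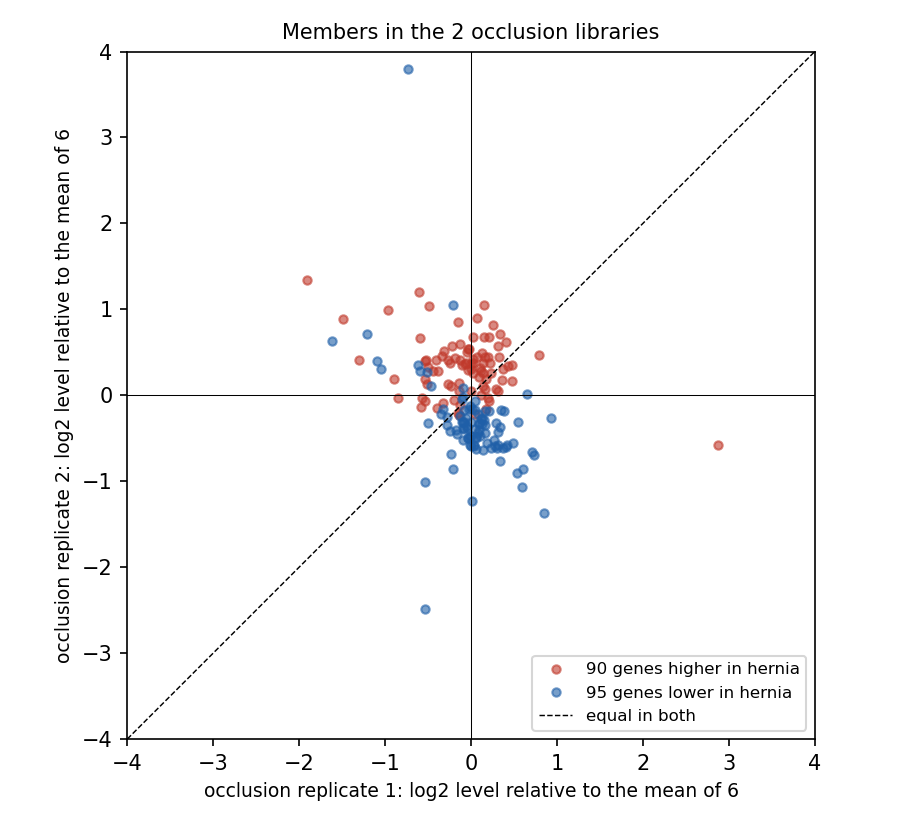
Log2 level of each member in the occlusion libraries relative to the mean of the control and hernia with occlusion libraries, replicate 1 on one axis and replicate 2 on the other, with the higher and lower sets in separate colours. Most points of the higher set lie on the side where replicate 2 exceeds replicate 1 (72 of 90) and most of the lower set on the other side (78 of 95).

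Against controls, the occlusion lungs as a group showed no member past the threshold. The edgeR quasi-likelihood test called 0 of 185 members at an adjusted p under 0.05, beside 0.0149% of all 13379 genes tested, and the lowest adjusted p of a member was 0.852. At an unadjusted p under 0.05, 4 of the 90 genes of the higher set were above control (3.24% of all genes were) and 4 of the 95 of the lower set were below (1.89% of all genes). DESeq2 called 0 members, beside 0.165% of all genes. The median log2 difference was 0.09 in the higher set and -0.08 in the lower set, beside 0.01 over all genes. The controls were part of the choice, which limits how far they can lie towards the hernia values.

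Hernia lungs against occlusion lungs compares libraries that chose the genes with libraries that entered only the level filter. The hernia mean exceeded the occlusion mean in 89 of the 90 genes of the higher set, by a median of 0.58 on the log2 scale. The exception was ENSOCUG00000028188, at -0.05, with 16.6 and 15.6 CPM with a hernia and 11.2 and 21.4 CPM with occlusion. In the lower set the hernia mean was below the occlusion mean in 95 of 95 genes, with a median of -0.68. Since the hernia values were chosen to be extreme in these genes, the directions, p-values and calls of this comparison are given as values only, and nothing is read from their excess over all genes.

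In that comparison edgeR called 0 of 185 members, and 0% of all genes, with lowest adjusted p-values of 0.204 in the higher and 0.262 in the lower set. At an unadjusted p under 0.05, 40 of 90 (44.4%) were higher, beside 2.74% of all genes, and 83 of 95 (87.4%) were lower, beside 4.82%. DESeq2 called 12 members of the higher set and 15 of the lower set, while it called 0.524% of all genes, and the calls differed with the tool. ENSOCUG00000003205 had the lowest adjusted p by edgeR. It stood at 150.6 and 150.6 CPM with a hernia and at 50.2 and 68.4 CPM with occlusion, and controls had 70.4, 70.5 and 63.3 CPM. Its log2 difference was 1.31 ± 0.19 (SE), with an adjusted p of 0.204 by edgeR and 9.97e-07 by DESeq2, and 9.97e-07 to 0.662 over 17 alternatives.

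For ENSOCUG00000006106, hernia minus occlusion was 4.60 ± 0.77 on the log2 scale (SE; edgeR adjusted p = 0.258, and 8.74e-07 to 0.766 over 17 alternatives). For ENSOCUG00000014800 it was -2.02 ± 0.60 (SE; edgeR adjusted p = 0.614), with -2.50 to -1.27 and adjusted p from 0.028 to 0.999 over 17 alternatives. In both genes the call was made by DESeq2 only. ENSOCUG00000011869, ENSOCUG00000023599, ENSOCUG00000011455 and ENSOCUG00000026015 passed in 0 of 17 alternatives, with log2 differences of 1.16, 1.87, -2.98 and -1.54. The first 3 of these rested on single libraries. For ENSOCUG00000011869 the difference was 4.29 without occlusion replicate 1, 0.25 without occlusion replicate 2 and 0.10 without hernia replicate 1. For ENSOCUG00000023599 it was 1.01 without occlusion replicate 1 and 4.31 without occlusion replicate 2, and for ENSOCUG00000011455 it was -1.10 and -3.76.

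In ENSOCUG00000016180 the values turned on 1 occlusion lung, and the gene was singled out after this was seen. It stood at 5.69, 3.86 and 1.82 CPM in controls, 0.427 and 0.45 CPM with a hernia, 0.882, 1.65 and 0.848 CPM with both operations, and 1.01 and 34.3 CPM with occlusion. Occlusion replicate 2 was far above every other library. Besides it, only control replicate 1 reached 5 CPM, so the gene passed the level filter only with that occlusion lung counted. Its differences from occlusion are therefore given as values only. Hernia minus occlusion was -5.35 ± 1.39 on the log2 scale (SE; edgeR adjusted p = 0.544). Without occlusion replicate 1 it was -6.31 (edgeR adjusted p = 0.0165), and over 17 alternatives it ran from -6.31 to -1.22, with adjusted p from 0.000646 to 0.932.

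Lungs with both operations were also set against occlusion lungs. The lungs with both operations took part in the choice, which bounds them on the hernia side, while the occlusion lungs entered only the level filter. The choice favours members that lie further from the hernia after both operations than with occlusion. The counts and p-values are therefore a description, and nothing is read from their excess over all genes. edgeR called 0 of 185 members and 0% of all genes, and the lowest adjusted p of a member was 0.975. At an unadjusted p under 0.05, 16 of the 90 genes of the higher set were lower after both operations (3.52% of all genes were) and 3 of the 95 of the lower set were higher (1.21% of all genes). The median log2 difference was -0.29 in the higher set and 0.17 in the lower set, beside 0.01 over all genes. DESeq2 called 1 member, beside 0.18% of all genes, namely ENSOCUG00000016180 at a log2 difference of -4.01 ± 0.95 (SE; DESeq2 adjusted p = 0.0195). This gene passed the level filter only with occlusion replicate 2 counted, so nothing is read from the call. Over 17 alternatives its adjusted p ran from 0.0128, by edgeR without occlusion replicate 1, to 1.0.

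Lungs with both operations were also set against controls. Both groups chose the genes, so how near they lie to each other is in part fixed by the choice, and the counts and p-values of this comparison are a description. For 75 of the 90 genes of the higher set and 80 of the 95 of the lower set the groups overlapped. The lungs with both operations lay wholly past the controls, away from the hernia, in 11 genes of the higher set (12.2%; 10.6% of all genes lay below all controls) and in 11 of the lower set (11.6%; 13.9% of all genes lay above). They lay wholly between controls and hernia lungs in 4 genes of each set (4.44% and 4.21%), beside 13.9% of all genes above all controls and 10.6% below. The choice bounds both groups on the hernia side, which limits this last count.

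The position after both operations was also expressed as the share of the hernia's difference from control that was left, on the log2(CPM + 0.5) scale, where 0 is the control mean and 1 the hernia mean. The median share was -0.18 in the higher set and -0.18 in the lower set. The middle values ran from -0.48 to -0.02 and from -0.36 to 0.0. The share was below 0, on the far side of control, in 68 of 90 and in 69 of 95 genes, and exceeded 0.5 in 1 gene, ENSOCUG00000016180 (0.63). Since the same libraries chose the genes, these shares are a description.

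**Figure D5:**
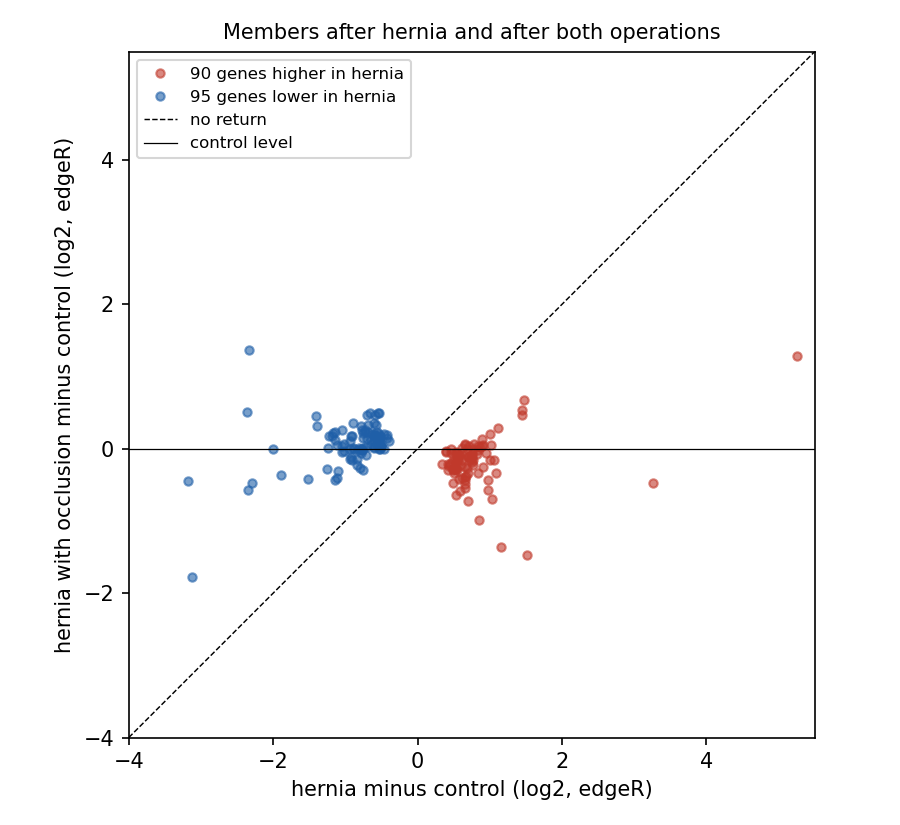
Hernia minus control and hernia with occlusion minus control for each of the 185 members, both as log2 differences fitted by edgeR. Most points lie near 0 or on the side opposite to the hernia on the second axis. The share of the hernia's difference left was computed on the log2(CPM + 0.5) scale and not from the plotted values. It was below 0 in 68 of the 90 and 69 of the 95 genes.

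The 4 genes of each set that lay wholly between were named for that reason, after their values were seen. In the higher set they were ENSOCUG00000006106, ENSOCUG00000003205, ENSOCUG00000013412 and ENSOCUG00000007265. ENSOCUG00000003205 had 81.0, 100.1 and 71.6 CPM after both operations, above the 63.3 to 70.5 CPM of controls. ENSOCUG00000013412 had 4.86 ± 0.29 CPM in controls, 13.8 ± 1.3 CPM with a hernia and 7.92 ± 1.8 CPM after both (SD, n = 3, 2 and 3). ENSOCUG00000007265 had 3.14 ± 0.26, 8.71 ± 1.9 and 4.64 ± 1.0 CPM in the same order.

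In the lower set they were ENSOCUG00000009242, ENSOCUG00000016180, ENSOCUG00000001595 and ENSOCUG00000005144. ENSOCUG00000001595 stood at 159.2, 137.6 and 154.8 CPM in controls, 87 and 89.9 CPM with a hernia, 122.7 and 104.6 CPM with occlusion, and 128.7, 121.5 and 130.7 CPM with both operations. Its lungs with both operations were thus below all controls and above both hernia lungs, without overlap. ENSOCUG00000005144 had 63.4 ± 6.3, 38.5 ± 0.24 and 52.8 ± 3.1 CPM in control, hernia and hernia with occlusion lungs, and ENSOCUG00000009242 had 24.9 ± 1.2, 14.2 ± 1.1 and 22.9 ± 0.35 CPM (SD, n = 3, 2 and 3).

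None of these differences from control passed the edgeR test. It called 0 of 185 members, beside 0.0224% of all genes, with a lowest adjusted p of 0.214 in the higher and 0.255 in the lower set. At an unadjusted p under 0.05, the higher set had 7 genes below control and 1 above, where 7.13% and 8.31% of all genes were; the lower set had 3 above and 2 below. The median log2 difference was -0.15 in the higher set and 0.09 in the lower set, beside 0.01 over all genes, and 17 of 90 and 65 of 95 genes were above control, beside 51.3% of all genes.

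DESeq2 called 3.8% of all genes in that comparison and 1 member, ENSOCUG00000029105. It stood at 273.8, 330.9 and 348.3 CPM in controls, 508.6 and 506.1 CPM with a hernia, 276.8 and 230.6 CPM with occlusion, and 220.9, 274.9 and 196.4 CPM with both operations. The lungs with both operations overlapped the controls by 1 library. The log2 difference from control was -0.49 ± 0.14 by edgeR (SE; adjusted p = 0.214) and the DESeq2 adjusted p was 0.0438, with 0.0438 to 0.516 over 17 alternatives.

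The contrasts that chose the genes are given for completeness, and nothing is read from them. For hernia against control edgeR called 0 members and 0.00747% of all genes, with 70 of 90 and 90 of 95 members reaching an unadjusted p under 0.05 in their direction; DESeq2 called 59 members and 1.11% of all genes. For both operations against hernia edgeR called 0 members and 0.00747% of all genes, with 85 of 90 and 92 of 95 at that level, and DESeq2 called 136 members and 6.69% of all genes. These contrasts share libraries with each other and with those above.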

How the data were processed

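The table the authors deposited holds whole-number estimated counts for 13429 Ensembl rabbit genes in 10 libraries, although it is titled as CPM; column totals differ, so the values were used as counts without rounding. Per the submitters' processing notes, kallisto 0.42.2.1, edgeR and the build OryCun2.0 were used, with no role given. Of the summing of transcripts to genes, the rounding and any filter, the sources used here say nothing. Values of near-identical or overlapping genes are uncertain, since shared reads can be split.

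Groups came from the source labels. CPM used the column total, and log2 values used CPM + 0.5. The set was found with the stated rule, and the members and lists were chosen with earlier results of these data known. The 13379 genes reaching 1 CPM in 2 or more libraries, among them all 185 members, were tested with edgeR 4.0.16 (R 4.3.3; TMM scaling, quasi-likelihood test, 1 mean per group over 10 libraries, 6 residual degrees of freedom, Benjamini-Hochberg over all genes tested, threshold 0.05). DESeq2 1.42.0, limma 3.58.1, other scalings and filters, groups fitted alone, title stem as a block, and each library left out were alternatives. The edgeR script was tested on data simulated with changes of 2-fold or more. Smaller differences, such as most members had between hernia and control, were not simulated, so how many edgeR would call is not known.

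None of the identifiers matched the 38822 genes of the reference table of another assembly, so the gene lists and cell type markers that had been set down could not be applied, and no sequence is shown. The rule for named genes took the 2 widest gaps per direction and, for occlusion and for hernia with occlusion against control, up to 2 members per direction with an adjusted p under 0.05, of which there were none; other genes were named after their values were seen.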

Additional observations from a re-analysis of the deposited data

How the results depend on the processing

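The size of the set depended on its limit. A factor of 1.1, 1.5 or 2 gave 408, 12 and 3 genes in the higher set and 405, 16 and 3 in the lower set, and leaving out 1 library gave 101 to 332 and 104 to 317. With the level asked of every library the rule uses, 65 and 80 genes remained, and no level filter gave 117 and 105. Adding 2 to CPM gave 67 and 77, and adding 0 gave 101 and 102. In ENSOCUG00000006106 only the hernia libraries reached 5 CPM. Of members at a factor of 1.5, 8.33% and 0% of the higher set and 0% and 0% of the lower set were at hernia level in occlusion replicates 1 and 2; TMM scaling gave 5.26% for the lower set in replicate 2. DESeq2 called more genes than edgeR: 22 for occlusion against control, 70 for hernia against occlusion (27 members), 24 for both operations against occlusion (1 member) and 468 for both operations against control (1 member). Fits of the 2 groups alone called 1 gene, 2 and 6 in the first, second and last of these comparisons. For hernia against occlusion limma called 1 gene, and 1 with the title stem as a block (correlation -0.3807). Leaving out 1 library gave 0 to 9, 0 to 17, 0 to 68 and 1 to 13 genes called, in the order above. Members called were 0 to 1 for hernia against occlusion and 0 to 1 for both operations against occlusion; occlusion replicate 1 left out gave the 1, ENSOCUG00000016180, and the 17 and 68 genes. ENSOCUG00000016180 passed the level filter only with occlusion replicate 2 counted. Where the counts above moved for reasons other than fewer samples, the cause was not tested. The difference between the occlusion lungs kept its direction under 3 alternatives chosen after seeing the data: TMM scaling (-0.39 and 0.43), members at a factor of 1.5 (-0.64 and 0.45), and members of at least 10 CPM (-0.44 and 0.44). No analysis paired by replicate number was possible because the labels carry none; the 2 title stems that groups share (M83 and M88) entered as the block above, under which 0 members were called in these 4 comparisons. A group reduced to 1 lung was assumed to vary like the others. Groups of 2 and 3 lungs, and counts as low as 3 in a member, limit the precision.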
